A study of Mus musculus with 5 samples.

Results

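The 9 genes examined here encode subunits of the Lsd1-CoREST complex. They were chosen by name, as the catalytic subunit Kdm1a, the scaffolds Rcor1, Rcor2 and Rcor3, the deacetylases Hdac1 and Hdac2, and the associated proteins Phf21a, Hmg20b and Gse1, out of 21938 protein-coding genes in the annotation. Lsd1, the product of Kdm1a, removes methyl groups from lysine 4 of histone H3, and CoREST proteins hold it together with a deacetylase, so that marks of active promoters and enhancers are taken off together. Gfi1 has no catalytic activity of its own and brings Lsd1 and CoREST to DNA through its N-terminal SNAG domain. In cells of the tumor model used here, the study detected Lsd1 and CoREST after immunoprecipitation of Gfi1, but neither Hdac1 nor Hdac2. The question was whether Gfi1 and Lsd1 occupied the promoters and bodies of the genes that encode the Lsd1-CoREST complex itself.

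The peaks came from MG tumors, a mouse model of medulloblastoma in which Prominin1+ lineage-negative neural stem cells were sorted from the cerebella of C57BL/6 wild-type pups of 5 to 7 days, given Myc (a stabilised mutant) and Gfi1 by retrovirus, and grown into tumors in immunodeficient NSG hosts. Both oncogenes were thus expressed from viral promoters, and no group without Gfi1 had ChIP-seq. Gfi1 and Lsd1 were each immunoprecipitated from the same 2 tumors, numbered 39 and 41, which gave 4 libraries and n = 2 per factor. The 4 lists held between 25078 and 36836 peaks, with the shortest list for Gfi1 in tumor 41. By the study's account of its sequencing, that Gfi1 library had more mapped reads than the one of tumor 39, and the Lsd1 library of tumor 41 had fewer, so for both factors the deeper library had the shorter list. Peak lists hold no read counts and no expression values, so neither the depth behind a peak nor the identity of the tissue from its markers could be examined, and nothing below describes expression. Each peak carries a score with a minimum of 50, whose definition is not given. A score was therefore turned into a percentile, the share of peaks in the same list that score lower, with tied peaks placed at the middle of their tie. Many of the highest peaks were tied at a score of 3100, 805 of them in the Gfi1 list of tumor 39 but only 12 in that of tumor 41. With 2 tumors per factor an exact two-sided permutation test cannot give a p-value below 0.333, so no test was run and the spread is given as the SD over the 2 tumors.

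All 9 genes carried a promoter peak, that is, a peak within 1000 bp of an annotated transcription start site (TSS), in each of the 4 lists. Among all protein-coding genes, 65.0% had such a peak in the Gfi1 list of tumor 39 and 54.3% in that of tumor 41, and the shares in the Lsd1 lists were 58.5% and 61.7%. A promoter peak in all 4 lists was present at 53.1% of protein-coding genes. Each of the 9 genes has a CpG-rich promoter, defined as a GC content of at least 50% and an observed-to-expected CpG ratio of at least 0.6 within 500 bp of a TSS, and 85.0% of the 11236 genes with such promoters had peaks in all 4 lists. Occupancy of all 9 genes was therefore close to the level of CpG-rich promoters in general.

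Start sites of the same genes that were occupied in all lists were richer in CpG than those occupied in none. GENCODE lists 33 start regions for the 9 genes, a start region being a run of TSSs less than 2000 bp apart. Of these, 11 were occupied in all 4 lists, 2 in 3 lists and 20 in no list. A region was given the highest observed-to-expected CpG ratio over its TSSs, so regions with more TSSs had more chances of a high ratio. Regions occupied in all lists held up to 13 TSSs and unoccupied ones up to 3. The ratio lay between 0.686 and 1.03 at the regions occupied in all lists, and between 0.124 and 0.417 at the unoccupied ones. These ranges did not overlap, but the 2 regions occupied in 3 lists, both in Gse1, had ratios of 0.410 and 0.431, so that the lower of them lay within the range of the unoccupied regions. Of the 20 unoccupied regions, 8 start a protein-coding transcript and the others start only retained introns and other transcripts without that label.

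The promoters below show this contrast and the letters of the Gfi1 core motif. Each run is 200 bases of GRCm38.p6 taken from RefSeq promoters, from base 250 to base 51 before the annotated start, written 5′ to 3′ on the strand of the gene, with AATC and its reverse complement GATT in capitals. Hdac2 and Gse1 are shown because their promoters held high-confidence peaks of both factors, as defined below, with 2 start sites of Gse1 that lie under one peak, and Kdm1a because its mean percentile over the 4 lists was the lowest. The pair from Phf21a was added after its values had been seen, to set an occupied start beside an unoccupied one.
Hdac2, chr10:36974294-36974493, plus strand: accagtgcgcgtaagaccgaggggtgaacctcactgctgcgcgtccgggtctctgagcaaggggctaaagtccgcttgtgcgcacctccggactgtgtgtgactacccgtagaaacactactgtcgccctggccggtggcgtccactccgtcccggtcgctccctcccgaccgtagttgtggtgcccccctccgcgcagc
Gse1, chr8:120535607-120535806, plus strand: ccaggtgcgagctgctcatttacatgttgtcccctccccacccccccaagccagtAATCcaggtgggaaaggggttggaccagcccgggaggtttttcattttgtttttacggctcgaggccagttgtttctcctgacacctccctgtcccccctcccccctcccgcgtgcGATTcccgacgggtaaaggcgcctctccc
Gse1, chr8:120537159-120537358, plus strand: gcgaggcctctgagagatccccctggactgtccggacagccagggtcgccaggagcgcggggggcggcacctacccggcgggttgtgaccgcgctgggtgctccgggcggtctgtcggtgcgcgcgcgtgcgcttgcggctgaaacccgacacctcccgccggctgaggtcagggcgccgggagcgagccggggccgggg
Kdm1a, chr4:136602774-136602973, minus strand: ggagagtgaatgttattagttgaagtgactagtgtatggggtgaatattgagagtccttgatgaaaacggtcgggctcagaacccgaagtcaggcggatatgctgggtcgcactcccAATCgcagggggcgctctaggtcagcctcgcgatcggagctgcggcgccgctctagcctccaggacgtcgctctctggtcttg
Phf21a, occupied, chr2:92185233-92185432, plus strand: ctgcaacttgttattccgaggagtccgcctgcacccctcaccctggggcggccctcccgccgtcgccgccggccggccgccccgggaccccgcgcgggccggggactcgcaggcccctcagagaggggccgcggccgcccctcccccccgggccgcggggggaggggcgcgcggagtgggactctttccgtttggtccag
Phf21a, unoccupied, chr2:92221222-92221421, plus strand: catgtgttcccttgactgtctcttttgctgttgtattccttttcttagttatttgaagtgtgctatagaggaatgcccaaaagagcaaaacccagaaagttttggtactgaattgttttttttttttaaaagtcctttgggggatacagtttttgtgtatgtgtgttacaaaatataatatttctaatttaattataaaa

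The occupied Phf21a run is 79.0% GC and holds 26 CpG dinucleotides, whereas the unoccupied one is 30.5% GC and holds 0. The Hdac2 run is 66.0% GC with 20 CpGs and has no AATC on either strand, and the Kdm1a run is 57.0% GC with 15 CpGs and has 1. The first Gse1 run has 10 CpGs and 2 AATC letters, and the second has 27 CpGs and 0. RefSeq promoters of 300 bases, from 250 before to 50 after the start, were found for 8 of the 9 genes, 13 promoters in all. The longer core AATCAC, searched on both strands, was in 0 of the 13, and was present in 10.4% of 32851 RefSeq promoters. The shorter AATC, which AATCAC contains, was in 8 of the 13, against 73.1% of all promoters, but 3 of these 8 are overlapping windows of Hmg20b and 1 is the unoccupied Phf21a start. By gene it was found for 5 of the 8. These windows are shorter than the peaks. Within the highest promoter peak, AATCAC was found for Phf21a 3 times in each list and for Hmg20b at least once in each list. Rcor2 had 2 matches in both Lsd1 peaks and none in the Gfi1 peaks, Gse1 had 1 in the Lsd1 peak of tumor 41 only, and the other 5 genes had none in any list. Over all genes with a promoter peak, the highest peak held AATCAC in 48.6% to 56.6% of genes, depending on the list. A match of letters is a description and not a binding site.

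Kdm1a, the gene of the demethylase itself (ENSMUSG00000036940.15, chr4:136550540-136602723, minus strand), was occupied at 1 of its 6 start regions, the most upstream one. The peaks there covered UTR and coding exon sequence. The Gfi1 peak measured 2162 bp in tumor 39 and 2099 bp in tumor 41, and the Lsd1 peak 2095 bp and 2631 bp. Their score percentiles were 85.7 and 59.8 for Gfi1, a mean of 72.8 ± 18.3 (SD, n = 2), and 67.1 and 84.6 for Lsd1, a mean of 75.8 ± 12.4. Kdm1a thus had the lowest percentile of the 9 genes in the Lsd1 list of tumor 39 and in the Gfi1 list of tumor 41, and the values of both factors overlapped. The antibody for Lsd1 recognises the product of this gene, but the occupied sequence is that of the promoter.

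The 3 Rcor genes encode the CoREST scaffolds that bind Lsd1 and the deacetylases. Rcor1 (ENSMUSG00000037896.17, chr12:111039351-111115901, plus strand) stood at percentiles 98.6 and 77.5 for Gfi1 in tumors 39 and 41, a mean of 88.1 ± 14.9, and at 97.2 and 94.8 for Lsd1, a mean of 96.0 ± 1.73. Rcor2 (ENSMUSG00000024968.14, chr19:7267325-7275225, plus strand) stood at 95.9 and 71.1 for Gfi1, a mean of 83.5 ± 17.5, and at 95.6 and 97.1 for Lsd1, a mean of 96.4 ± 1.05. Rcor3 (ENSMUSG00000037395.15, chr1:192098546-192138062, minus strand) stood at 98.6 and 75.2 for Gfi1, a mean of 86.9 ± 16.5, and at 92.2 and 98.5 for Lsd1, a mean of 95.4 ± 4.41. All 3 scaffold genes had a Gfi1 value in tumor 41 that lay well below the other 3 values. Hdac1, Phf21a and Kdm1a also had their lowest value there. The Gfi1 percentile was lower in tumor 41 than in tumor 39 for 77.4% of genes with promoter peaks in all 4 lists. Rcor2, of which the product is best known from neural progenitors and embryonic stem cells, had the widest peaks of the 3 Rcor genes. They measured 6736 bp for Gfi1 in tumor 39 and 8065 bp and 8359 bp for Lsd1 in tumors 39 and 41. In the Gfi1 list of tumor 41 the same promoter held 2 peaks of 1596 bp and 1986 bp. The Rcor3 peaks also lay within 1000 bp of the starts of Gm10516 and, with 1 exception in Gfi1 of tumor 41, of Gm37055, so they cannot be assigned to Rcor3 alone.

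Hdac1 and Hdac2 encode the 2 related class I deacetylases of the complex, which NuRD and Sin3 also contain. Hdac2 (ENSMUSG00000019777.16, chr10:36974544-37001889, plus strand) had peaks of ordinary width, from 2134 bp to 2617 bp, but high scores. Its Gfi1 percentiles were 99.9 and 94.2, a mean of 97.0 ± 4.02, and its Lsd1 percentiles were 91.6 and 94.7, a mean of 93.1 ± 2.18. Hdac1 (ENSMUSG00000028800.15, chr4:129516104-129542713, minus strand) had peaks of 2065 bp to 2580 bp, with percentiles of 87.5 and 73.7 for Gfi1, a mean of 80.6 ± 9.73, and of 81.2 and 84.4 for Lsd1, a mean of 82.8 ± 2.27. Hdac2 was above Hdac1 in each of the 4 lists. Only the first of 3 start regions of Hdac2 and of 4 start regions of Hdac1 was occupied.

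Phf21a encodes BHC80, which reads unmethylated lysine 4 of histone H3. The gene (ENSMUSG00000058318.15, chr2:92093117-92364666, plus strand) has 7 start regions, and only the second, with TSSs from 92184106 to 92186465, was occupied. The annotated first start at 92093117 had no peak in any list. The highest peak of the occupied region stood at 84.0 and 62.0 for Gfi1, a mean of 73.0 ± 15.6, and at 85.5 and 90.1 for Lsd1, a mean of 87.8 ± 3.20. At its upstream edge a gap of 98 bp to 386 bp set off a lower peak in each list, and in the Gfi1 list of tumor 41 a further gap of 232 bp divided the region. Both Lsd1 values were above both Gfi1 values.

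Hmg20b, which encodes the HMG-box subunit BRAF35, is the shortest of the 9 genes at 4.43 kb (ENSMUSG00000020232.17, chr10:81346048-81350480, minus strand). Its highest peak stood at percentiles 98.6 and 94.1 for Gfi1, a mean of 96.3 ± 3.21, and 96.7 and 98.1 for Lsd1, a mean of 97.4 ± 0.936. In tumor 39 a single peak ran over the whole gene, 7889 bp wide for Gfi1 and 10539 bp wide for Lsd1. In tumor 41 the same stretch held 2 peaks for each factor, separated by 1108 bp for Gfi1 and by 69 bp for Lsd1. Peaks covered 100% and 74.3% of the gene for Gfi1 and 100% and 98.4% for Lsd1, tumor 39 first. The Lsd1 peak of tumor 39 also reached within 1000 bp of a start of the neighbouring gene Gipc3.

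Gse1, which encodes a coiled-coil protein found with the complex, had the highest mean percentile of the 9 genes. The gene (ENSMUSG00000031822.20, chr8:120228456-120581390, plus strand) has 5 start regions, and 3 of them were occupied in all 4 lists while the other two lacked only an Lsd1 peak of tumor 39. The strongest peak lay over the third region, with TSSs from 120535857 to 120537429, with a width of 9994 bp and 7215 bp in the Gfi1 lists and of 11249 bp and 13233 bp in the Lsd1 lists. Its percentiles were 98.6 and 99.1 for Gfi1, a mean of 98.9 ± 0.341, and 99.7 and 99.2 for Lsd1, a mean of 99.4 ± 0.403. In 3 of the 4 lists its score was exactly 3100, so that the differences among these percentiles reflect how many peaks tie there. The Gse1 peak shares its stretch with the starts of 1700016A09Rik and Mir7687, and the peaks over the first region with that of A330074K22Rik.

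**Figure D1:**
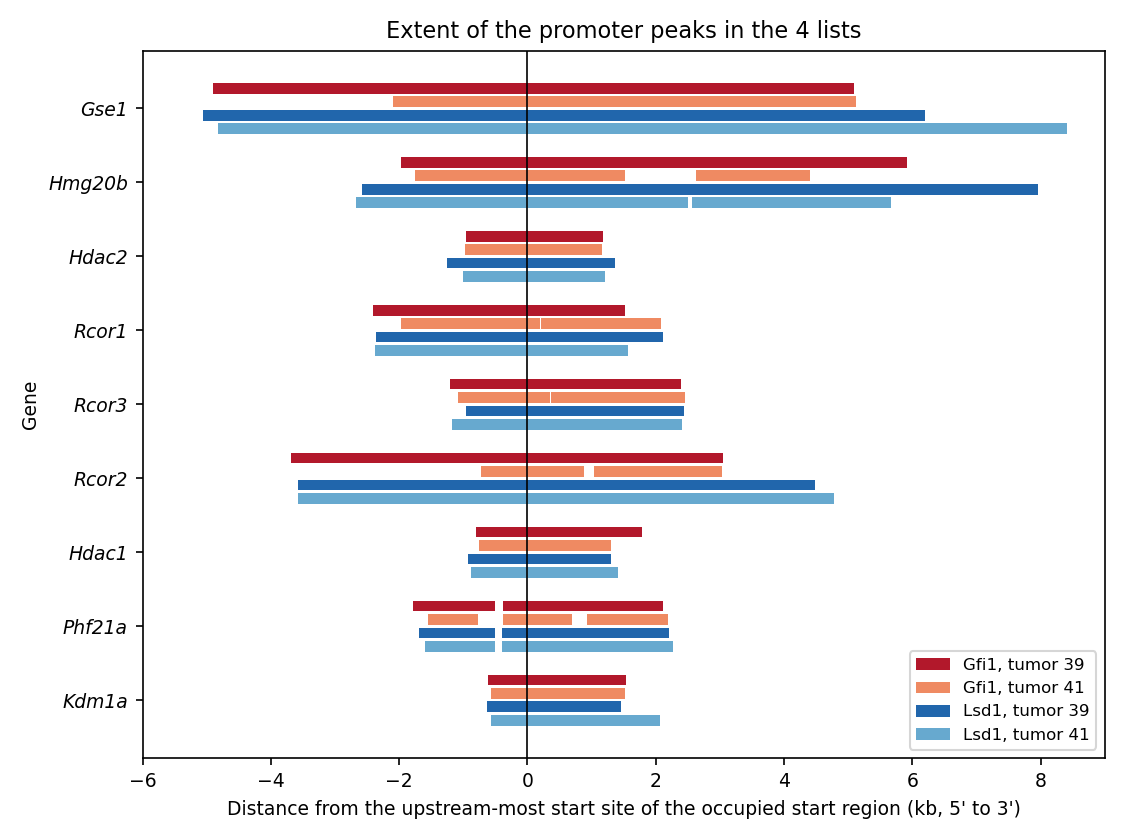
Promoter peaks of the 9 genes in the 4 lists. The horizontal axis gives the distance in kb from the upstream-most TSS of the occupied start region (for Gse1, the third), oriented along the gene, each bar is 1 peak, and the genes are ordered by mean score percentile. Every gene has a bar of each color across or beside the start, the bars of Gse1, Hmg20b and Rcor2 are the widest, and those of Rcor1, Rcor2, Rcor3, Phf21a and Hmg20b are divided for Gfi1 in tumor 41, by a gap of 8 bp in Rcor1 and Rcor3.

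Ordered by the mean of the 4 percentiles, the genes were Gse1 at 99.2, Hmg20b at 96.9, Hdac2 at 95.1, Rcor1 at 92.0, Rcor3 at 91.1, Rcor2 at 89.9, Hdac1 at 81.7, Phf21a at 80.4 and Kdm1a at 74.3. Pooled over the 4 lists, the values of neighbouring genes overlapped or met in all 8 neighbouring pairs. Neighbours were not compared within each list, so this pooled overlap does not show whether a step held in every list. For Gfi1 the median over the 9 genes was 98.6 in tumor 39 and 75.2 in tumor 41, and for Lsd1 it was 92.2 and 94.8, respectively. The value of 98.6 is the percentile of every peak tied at the score of 3100 in that list. Over all genes with a promoter peak the medians were 82.5, 77.4, 79.0 and 81.0, and over those with CpG-rich promoters they were 86.0, 80.2, 81.8 and 84.1. The 9 genes were thus above the general median in 3 lists and slightly below it in the Gfi1 list of tumor 41. Their median peak widths were 3595 bp, 2099 bp, 3400 bp and 3577 bp in the same order of lists, against 2085.5 bp, 2185 bp, 2516 bp and 2380 bp over all genes with a promoter peak. Width followed the same pattern as score, with the Gfi1 list of tumor 41 again apart.

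**Figure D2:**
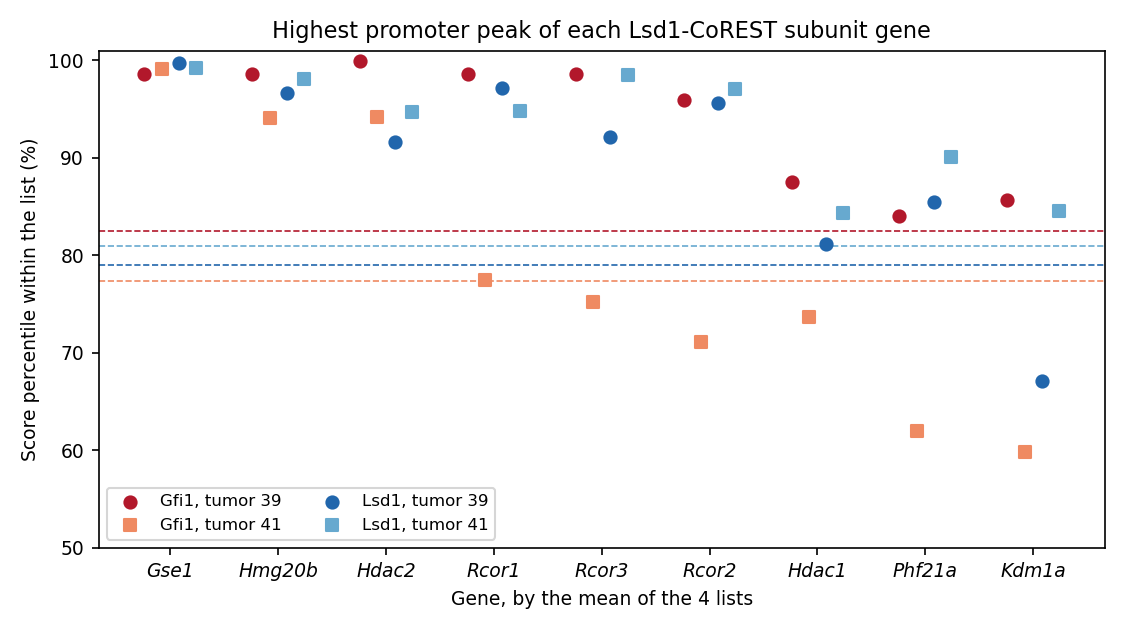
Score percentile of the highest promoter peak of each gene, with 1 point per list, genes ordered by the mean of the 4 lists. Dashed lines give the median over all protein-coding genes with a promoter peak in the list of the same color, from 77.4 to 82.5. The 6 genes from Rcor1 to Kdm1a have their lowest point for Gfi1 in tumor 41, while the 4 points of Gse1 lie between 98.6 and 99.7.

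The strongest peaks were selected after the criterion of the study, the upper 20% of each replicate with an overlap of at least 50%. It was applied here to the deposited score, and the overlap was measured on the tumor 39 peak, so that a high-confidence peak had at least 50% of its length in upper 20% peaks of tumor 41. This gave 4387 Gfi1 and 5181 Lsd1 peaks, which are not the study's own sets. For Gfi1 this left 2 of the 9 genes, Hdac2 and Gse1, against 22.9% of all protein-coding genes and 4612 of the 11236 with CpG-rich promoters. For Lsd1 it left 7 of the 9, all but Kdm1a and Hmg20b, against 25.9% of all genes and 5113 of the CpG-rich ones. Hdac2 and Gse1 were the 2 genes with high-confidence peaks of both factors, which 19.5% of all genes had. The Gfi1 count was set by tumor 41. A promoter peak in the upper 20% was present in the Gfi1 lists for 9 of 9 genes in tumor 39 and 3 of 9 in tumor 41, against 36.2% and 24.6% of all genes. In the Lsd1 lists it was present for 8 and 9 of the 9 genes, against 28.1% and 32.2%. The lowest Gfi1 percentile of tumor 41 above the limit of 80 was that of Hmg20b at 94.1, and the highest below it was that of Rcor1 at 77.5. Without the tumor 41 list, 9 of 9 genes met the remaining Gfi1 criterion.

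Hmg20b missed the criterion for a different reason. Its highest peak was in the upper 20% in all 4 lists, but 41.3% of the length of the wide Gfi1 peak of tumor 39, and 48.1% of that of the Lsd1 peak, lay in upper 20% peaks of tumor 41, under the 50% that was required. Measured on the tumor 41 peak, a choice made after seeing the data, the overlap was met, with 3 of the 9 genes for Gfi1 and 8 for Lsd1. For Kdm1a the Gfi1 peak of tumor 41 and the Lsd1 peak of tumor 39 were outside the upper 20%. Of the highest Gfi1 promoter peaks of tumor 39, 6 of 9 were overlapped by 2 or more Gfi1 peaks of tumor 41, against 9.83% of all genes with peaks in all 4 lists. These genes were Rcor1, Rcor2, Rcor3, Phf21a, Hmg20b and Gse1. The background was not matched for peak width, and a wider peak can be overlapped by more peaks. In the Gfi1 list of tumor 39 the median width was 3595 bp over the 9 genes, against 2085.5 bp over all genes with a promoter peak. For Lsd1, an overlap by 2 or more peaks of tumor 41 was found for Hmg20b alone, 1 of 9 against 8.91%. The gap within the promoter in the Gfi1 list of tumor 41 was 8 bp for both Rcor1 and Rcor3 and 163 bp for Rcor2.

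Within a tumor, the percentiles of the 2 factors were compared gene by gene. In tumor 39 the Lsd1 percentile was above that of Gfi1 for 2 of the 9 genes, Phf21a and Gse1, against 29.1% of the 11653 genes with promoter peaks in all 4 lists. In tumor 41 it was above for 9 of 9, against 70.6%. For Gse1 this margin was 0.0567 and depended on placing tied scores at the middle of their tie. The median difference, Lsd1 minus Gfi1, was -1.88 percentage points in tumor 39, with a range from -18.6 to 1.51, and 17.3 in tumor 41, with a range from 0.0567 to 28.1. Over all genes these medians were -4.76 and 4.76, so the direction of the 9 genes in each tumor was that of genes in general. Lsd1 was above Gfi1 in both tumors for the same 2 genes, against 19.8% of genes. Both Lsd1 percentiles exceeded both Gfi1 percentiles for these 2 genes as well, against 15.4%. For Gse1 this rested on ties at the score of 3100. For all 9 genes the mean difference was smaller than its SD over the 2 tumors, for example 14.8 ± 18.8 for Phf21a, 12.9 ± 18.6 for Rcor2 and 3.06 ± 30.7 for Kdm1a. By this measure no gene had a difference between the factors that exceeded the spread between tumors. With 2 tumors the mean is always below the SD when the signs differ, as for every gene but Phf21a and Gse1. The comparison with the SD could therefore be informative for these 2 genes only.

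**Figure D3:**
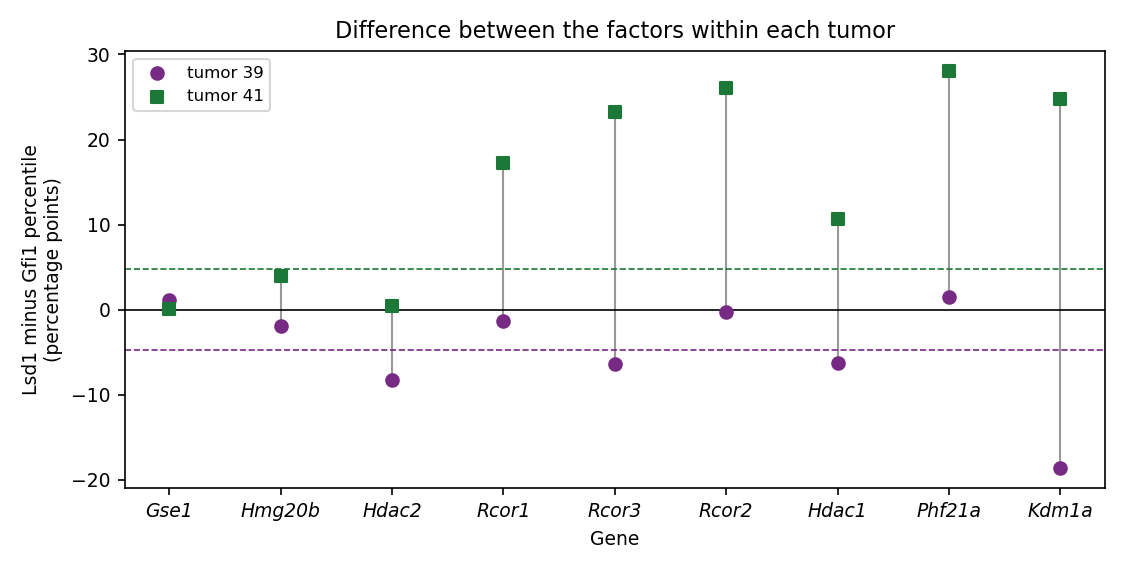
Lsd1 percentile minus Gfi1 percentile of the highest promoter peak, in percentage points, with 1 point per tumor and gene. Dashed lines give the medians over all genes with promoter peaks in all 4 lists, -4.76 in tumor 39 and 4.76 in tumor 41. All 9 squares of tumor 41 lie above 0, and 7 of the 9 circles of tumor 39 lie below it.

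The turn between the tumors came mainly from the Gfi1 lists. From tumor 39 to tumor 41 the Gfi1 percentile was lower for 8 of the 9 genes, with a median difference of -21.1 percentage points, whereas over all genes it was lower for 77.4% with a median of -7.26. The Lsd1 percentile was lower for 2 of the 9, with a median difference of 3.08, against 33.7% and 2.27 over all genes. Gse1 was the gene of which the Gfi1 percentile was not lower in tumor 41. The tumors also differ in the number of tied top scores and in list length, as given above, and the part of these differences in the result was not tested.

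Outside the promoters, most of the complex's genes had few peaks. A peak was called distal when it lay in the gene body more than 1000 bp from every annotated TSS. A distal peak in all 4 lists was found for 2 of the 9 genes, Phf21a and Gse1, against 9.58% of protein-coding genes. These are also the only members of at least 100 kb, and 27.6% of the 2492 genes of that length had one. Rcor3, Hdac1 and Hdac2 had no distal peak in any list. Hmg20b could have none, since every base of this short gene lies within 1000 bp of an annotated TSS. Kdm1a had 1 distal site, an intronic peak of Gfi1 in tumor 41 at percentile 23.0. Rcor1 had 2 sites, of which the one at chr12:111087671-111089747 was found in both Lsd1 lists and in neither Gfi1 list, at percentiles 51.0 and 17.4. Rcor2 had 1 site, at chr19:7272838-7275542, over its last exons, in 3 lists.

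In Phf21a, 7 distal sites were found, of which 2 were in all lists. One was intronic, at chr2:92299641-92300637, with percentiles of 20.3 and 17.5 for Gfi1 and 25.0 and 19.0 for Lsd1. It was weak in every list. The other covered coding and UTR sequence at the 3′ end of the gene, at chr2:92359057-92364673, with percentiles of 58.3 and 33.6 for Gfi1 and 70.0 and 54.5 for Lsd1. For the 6 genes other than Rcor2, Hmg20b and Gse1, peaks covered between 1.99% and 6.71% of the gene in each list, and the median over all protein-coding genes was 3.09%, 1.66%, 2.61% and 2.79%. Rcor2, a gene of 7.90 kb, was covered over 57.1% and 52.1% for Gfi1 and 87.0% and 82.2% for Lsd1.

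Gse1 was the exception among the long genes of the complex. Peaks covered 83.6% and 60.0% of its 353 kb for Gfi1 in tumors 39 and 41, and 53.4% and 84.5% for Lsd1. The gene held 67 and 64 distal Gfi1 peaks and 31 and 54 distal Lsd1 peaks. Joined over the lists these made 40 distal sites, 15 of them in all 4 lists and 9 in a single list. The comparison with other long genes was chosen after these values had been seen and is a description only. Among the 2492 protein-coding genes of at least 100 kb, Gse1 had rank 2 by share covered for Gfi1 in tumor 39 and rank 3 in tumor 41, with ranks 5 and 2 for Lsd1, and Nfix had rank 1 in every list. The median long gene was covered over 0.916%, 0.637%, 0.882% and 0.901%. The widest single Gfi1 peak in Gse1 measured 20991 bp in tumor 39 and 12326 bp in tumor 41, and the widest Lsd1 peak 15164 bp and 27345 bp. High-confidence peaks numbered 9 for Gfi1, 6 of them distal, and 8 for Lsd1, 3 of them distal. In both counts Gse1 had rank 2 of the 21938 protein-coding genes, but these counts were not scaled to gene length. By share covered it ranked 911 and 980 of the 21938 for Gfi1, in tumors 39 and 41, and 1668 and 955 for Lsd1.

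The coverage extended past the ends of Gse1 at a lower level. It was 38.7% and 23.4% for Gfi1 and 41.5% and 39.7% for Lsd1 over the 100 kb upstream, and 42.4% and 31.2% for Gfi1 and 48.6% and 49.5% for Lsd1 over the 100 kb downstream. In each list the gene was covered more than either flank. Inside the gene the Lsd1 list of tumor 39 differed from the other three by 2 long empty stretches. It held no peak over the 88.2 kb of chr8:120272406-120360581, which peaks covered over 93.2% and 77.9% for Gfi1 and 92.9% for Lsd1 in tumor 41. It held none over the 32.4 kb of chr8:120544833-120577275 either, where the other lists were covered over 98.5%, 71.8% and 91.9%. In the other lists the longest stretch without a peak was 17.4 kb, in Gfi1 of tumor 41. Gm20388, an annotated protein-coding gene that reads through several genes, spans all of Gse1, so that peaks of one fall also in the other.

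**Figure D4:**
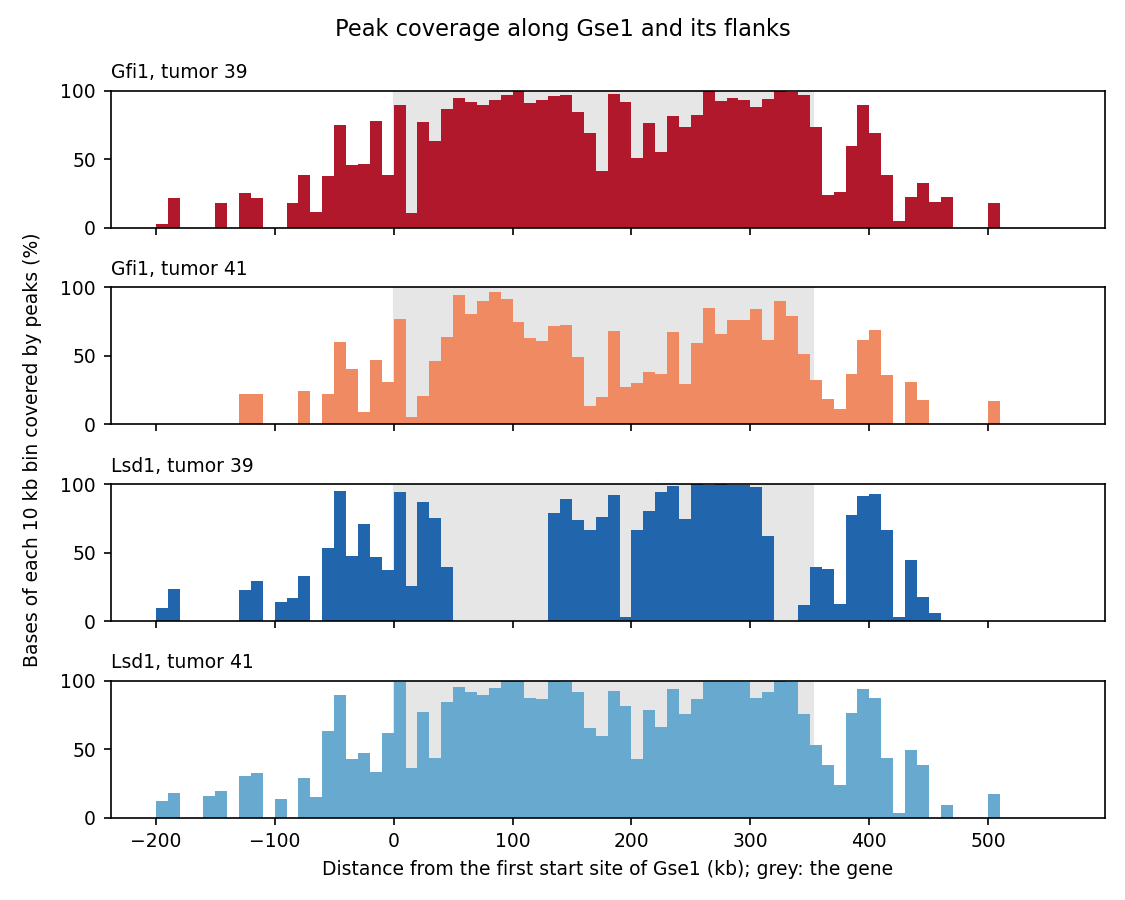
Share of each 10 kb bin covered by peaks along Gse1 (grey) and its flanks, by distance in kb from the first TSS of the gene, with 1 panel per list. Coverage varies along the gene, the bin from 10 kb being covered over 10.7% and 5.64% in the Gfi1 lists and 25.3% and 36.7% in the Lsd1 lists of tumors 39 and 41, and the Lsd1 list of tumor 39 shows 2 empty stretches of 88.2 kb and 32.4 kb where the other lists are covered.

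Other corepressor genes were counted in the same way, to set the 9 genes beside complexes that share subunits with them or act alongside them. All of the 12 other partners of Lsd1 or CoREST, the 12 NuRD subunits, the 13 Sin3 subunits and the 6 NCoR subunits had a promoter peak in all 4 lists, which 53.1% of all genes and 85.0% of those with CpG-rich promoters had. High-confidence promoter peaks, which 22.9% of all genes had for Gfi1 and 25.9% for Lsd1, were present for 7 and 8 of the 12 other partners, and genes with both included Kdm1b, Zmym2, Rreb1, Ctbp1, Zfp516 and Mier1. Kdm1b encodes the second lysine demethylase of this family. For NuRD the counts were 3 and 7 of 12, with both for Chd4, Mbd3 and Rbbp4. For NCoR they were 3 and 5 of 6, with both for Ncor1, Hdac3 and Gps2. For Sin3 they were 11 and 10 of 13, with both for Sin3a, Sap30, Sap130, Brms1, Brms1l, Arid4a, Arid4b, Ing1 and Ing2. The median Gfi1 percentile in tumor 41 was 94.6 over the Sin3 genes, 86.8 over the NCoR genes, 86.7 over the other partners and 74.8 over the NuRD genes, against 75.2 over the 9 subunit genes. The 9 subunit genes were thus next to NuRD and below the other lists in this library. In the Gfi1 list of tumor 39 their median of 98.6 was equal to that of the Sin3 genes and of the other partners, with 92.7 over NuRD and 93.0 over NCoR. In that list 98.6 is the percentile of every peak tied at the score of 3100, so the equal medians reflect this tie and cannot rank the 3 lists. For Lsd1 in tumor 39 it was 92.2, below 95.8 over Sin3 and above 89.4 over the other partners, 87.9 over NCoR and 85.9 over NuRD. For Lsd1 in tumor 41 it was 94.8, below 97.9 over Sin3 and above 93.7 over the other partners, 93.4 over NCoR and 87.6 over NuRD. The low place of the subunit genes was thus seen in 1 of the 4 lists, and no test was run between lists.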

How the data were processed

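Gfi1 and Lsd1 ChIP-seq of 2 MG tumors was used, as 4 peak lists of 1 library each. The authors aligned reads to mm10 with BWA 0.6.2, removed duplicates, merged files with Picard and called peaks in each library with MACS at default parameters against input chromatin. The MACS version is not given in the sources used here. The deposited lists give a position and the authors' score, which was used only to rank peaks within a list, in place of the enrichment that the study ranked by. The listed input, a pool of MGB tumors, was not analysed here.

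TSSs and genes came from GENCODE M21 (GRCm38, the build of mm10), and sequences from RefSeq. A promoter peak was within 1000 bp of a TSS, and the highest-scoring one represented a gene. High confidence was adapted from the study's rule, with the upper 20% of scores and 50% of the replicate 1 peak's length. The members and the lists of other corepressors were chosen with earlier results of these data known. All 9 members were named, and of the other lists the genes with high-confidence peaks of both factors, except 1 that is not reported here. Libraries with the same number come from the same tumor and were compared within it. Peak assignment was tested on simulated data. The lists carry no reads, so no precision per peak can be given. Alternatives varied the window, the TSS set, the score limit, the overlap, the ranking, the pairing of tumors and the library left out. Python 3.11.15, numpy 2.4.6, scipy 1.17.1, pysam 0.24.0 and samtools 1.23.1 were used.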

Additional observations from a re-analysis of the deposited data

Results flagged for a closer look

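The comparison of the factors turned between the tumors. The median Lsd1 minus Gfi1 difference in promoter percentile over the 9 genes was -1.88 percentage points in tumor 39 and 17.3 in tumor 41. Every gene was above 0 in tumor 41, but Gse1 by 0.0567 only, which depended on placing tied scores at the middle of their tie. The difference between the tumors was not tested.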

How the results depend on the processing

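Promoter peaks in all 4 lists were found for 9 of the 9 genes with a window of 500 bp and with protein-coding TSSs only. The count was also 9 with peak midpoints and with the upper 50% of scores, but 3 with only the upper 20%. It was 9 with a window of 2000 bp and without any 1 library (9 to 9), but these settings could not lower it. Genes with a high-confidence Gfi1 peak numbered 6 at the upper 40% of scores and 9 with no score limit. With only the upper 20% limit left to meet, they numbered 3 without Gfi1 replicate 1 and 9 without replicate 2 (tumor 41). The Lsd1 lists do not enter this count. The Lsd1 count lay between 5 at the upper 10% and 9. It was 9 without Lsd1 replicate 1 and 8 without replicate 2, and the Gfi1 lists do not enter it. Measuring overlap on the replicate 2 peak, chosen after seeing the data, gave 3 for Gfi1 and 8 for Lsd1. Genes with Lsd1 above Gfi1 in both tumors numbered 1 when peaks were ranked by width and 1 with ties at the lowest rank. Leaving out a library removed its tumor from this comparison, so the count became that of the other tumor. It was 9 without either library of tumor 39 and 2 without either library of tumor 41. Distal peaks in all lists were found for 2 to 4 genes when a library was left out, with 4 without Gfi1 replicate 1. Leaving out a list could not lower this count. The tumor 41 Gfi1 list is shorter, but the cause of these shifts was not tested. Ranking by width moved the mean percentile by more than 1 SD for 2 of 9 genes for Gfi1 and 7 of 9 for Lsd1. No paired analysis was possible because no result comes from a fitted test. The libraries are paired by tumor, and comparing them across tumors instead gave 3 genes with Lsd1 above Gfi1. No depth limit per peak is given, since the lists hold no reads.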
